A study of Rattus norvegicus with 6 samples.

Results

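The nuclear genes for subunits of respiratory complex I were compared between 3 samples of H9c2 cells given ginsenoside Rb2, a saponin of ginseng, and 3 control samples (Ctrl). Members were all known-gene rows whose symbol is Nduf followed by a, b, c, s, v or ab and a number, with the assembly factors (Ndufaf) left out. This gave 37 of 24360 gene rows, with 36 different symbols, and all 37 carried rat identifiers. Of these, 35 passed the filter on low counts and were tested. The symbols Ndufa1, Ndufa10, Ndufb1 and Ndufs6 were not analysed here.

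H9c2 is a wild-type myoblast line derived from embryonic rat heart and labelled as embryonic cardiomyocyte. The single treatment text that all 6 samples share gives Rb2 for 48 h, then oxygen and glucose deprivation for 4 to 6 h, then 12 h of return of both. It does not say whether the Ctrl samples were deprived. Whether replicates came from separate cultures is not stated, and the p-values therefore reflect spread among these samples that could be technical.

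Complex I, the NADH dehydrogenase of the mitochondrial inner membrane, passes electrons from NADH to ubiquinone and pumps protons as it does so. Its peripheral arm, which reaches into the matrix, holds the flavin and the iron-sulphur clusters, and its membrane arm holds the proton pumps, whose core proteins are encoded in mitochondrial DNA. The other subunits are encoded in the nucleus, made in the cytosol and imported. Heart muscle is rich in the complex, which is known as a source of reactive oxygen when oxygen returns after ischaemia.

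Total counts were 5521376, 5570308 and 5193077 in Rb2 replicates 1 to 3 and 8793390, 5881914 and 5787587 in Ctrl replicates 1 to 3. On the first principal component of log2 CPM, which held 42.3% of the variance, the Rb2 samples lay between -23.8 and -18.1. Ctrl replicate 1 stood apart at 47.0, with Ctrl replicates 2 and 3 at 18.1 and -0.56. Of the 9 cardiac markers listed, Nppa and Ryr2 had no row and could not be read. Tnnt2 alone passed the filter, at 42.1 to 49.6 CPM in Rb2 and 48.0 to 61.4 CPM in Ctrl. Actc1 had no count, and Tnni3, Myl2 and Myh7 were at or near 0. Myh6 had 6 to 10 counts in every sample and Nppb 1 to 8. The myoblast markers, of which Myod1, Myog and Des were tested, summed to between 37.7 and 44.5 CPM in Rb2 and between 30.8 and 40.1 CPM in Ctrl. Ckm, Tnnt1 and Myh3 had at most 6 counts in any sample, and Myf5 had no row. Of the 4 endothelial markers listed only Vwf had a row, and Pecam1, Cdh5 and Kdr could not be read. Vwf was at most 0.178 CPM in any Rb2 sample and 0.121 CPM in any Ctrl sample. The 4 leukocyte markers summed to at most 2.58 CPM in Rb2 and 1.92 CPM in Ctrl. Of the epithelial markers Epcam, Cdh1 and Krt18 had no count, and the list, carried by Krt8, summed to between 33.9 and 39.9 CPM in Rb2 and between 32.2 and 41.9 CPM in Ctrl. The fibroblast list, carried by Col1a1 and Thy1, summed to between 805 and 1178 CPM in Rb2 and between 697 and 1420 CPM in Ctrl. Of its other members Dcn had no count, and Pdgfra had 1 count, in Ctrl replicate 2.

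Start-site windows of 4 subunit genes are shown: Ndufs7, Ndufab1 and Ndufb7 had the smallest p-values among the members that were lower in Rb2, and Ndufs1 the smallest among those that were higher. The windows run from 250 bases before to 50 bases after the start in RefSeq's rat assembly GRCr8, 5′ to 3′ on the gene's own strand, which is the minus strand for all 4. Ndufs7 lies at chr7:10110449-10110748, Ndufab1 at chr1:186089287-186089586, Ndufb7 at chr19:41477242-41477541 and Ndufs1 at chr9:72073556-72073855. Capitals mark matches, on either strand, to the YY1 motif AAGATGGC or the ETS motif CCGGAAG, as named for the factors that bind such letters. The Ndufab1 window holds 0 matches.
Ndufs7: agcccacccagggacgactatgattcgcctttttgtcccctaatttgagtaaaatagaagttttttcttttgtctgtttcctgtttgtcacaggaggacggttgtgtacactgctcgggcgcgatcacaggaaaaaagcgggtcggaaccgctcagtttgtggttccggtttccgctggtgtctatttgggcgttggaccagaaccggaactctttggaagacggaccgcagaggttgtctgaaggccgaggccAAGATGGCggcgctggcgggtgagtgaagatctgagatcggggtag
Ndufab1: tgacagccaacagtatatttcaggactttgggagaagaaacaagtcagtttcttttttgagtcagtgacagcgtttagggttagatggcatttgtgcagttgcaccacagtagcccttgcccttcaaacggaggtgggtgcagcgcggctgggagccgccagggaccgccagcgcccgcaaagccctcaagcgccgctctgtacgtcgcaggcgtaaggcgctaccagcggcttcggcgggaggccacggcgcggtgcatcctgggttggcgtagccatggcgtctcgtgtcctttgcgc
Ndufb7: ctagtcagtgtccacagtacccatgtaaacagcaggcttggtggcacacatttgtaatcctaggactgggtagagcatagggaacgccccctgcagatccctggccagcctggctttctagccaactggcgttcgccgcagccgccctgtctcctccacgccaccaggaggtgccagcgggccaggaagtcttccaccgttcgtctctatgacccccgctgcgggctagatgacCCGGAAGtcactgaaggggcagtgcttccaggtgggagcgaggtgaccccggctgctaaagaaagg
Ndufs1: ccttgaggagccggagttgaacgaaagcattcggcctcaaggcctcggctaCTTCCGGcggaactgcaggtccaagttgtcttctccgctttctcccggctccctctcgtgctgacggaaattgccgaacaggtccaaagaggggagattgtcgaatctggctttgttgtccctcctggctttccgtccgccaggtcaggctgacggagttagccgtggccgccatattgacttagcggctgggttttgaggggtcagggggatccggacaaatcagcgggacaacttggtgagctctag

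Windows were found for 32 of the 36 member symbols. The YY1 motif was in 8 of these 32 (25%), against 3.17% of all 33469 windows. Each member symbol was counted with a single window, while the share over all windows was not limited to genes tested here. The 8 include Ndufa4l2, which was not tested. All 8 matches read AAGATGGC on the gene's own strand, near the 3′ end of the window. These letters hold ATG, as a start codon does, and whether the matches are start codons was not tested. The share over all windows was not split by strand or position. The ETS motif was in 6 of 32 (18.8%), against 8.75% of all windows, and the NRF1 motif (GCGCA, any base, then GCGC) in 6 of 32 (18.8%), against 4.25%. No motif contains another, though the ETS motif ends in the AAG with which the YY1 motif begins. The YY1 motif was in the windows of Ndufs7 and Ndufs4 and the ETS motif in those of Ndufb7 and Ndufs1, in each case a gene with a log2 fold change below 0 and another above 0. These matches describe letters in a window and not sites of binding.

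Most complex I subunit genes had somewhat lower values in Rb2 than in Ctrl samples, but no single subunit passed the test, the groups overlapped in the subunits' summed level, and the small shift depended on how gene length was treated. Of 35 members tested, 0 were called higher and 0 lower at an adjusted p under 0.05 (edgeR's quasi-likelihood test, Benjamini-Hochberg over all 11551 genes tested). Of all genes 2.70% were called, 1.90% higher and 0.805% lower. DESeq2 and limma-voom also called 0 members. At an unadjusted p under 0.05, 11 members were lower and 1 higher, with 8.17% of all genes lower and 11.8% higher by the same rule. The log2 fold change of Rb2 over Ctrl was below 0 in 29 of 35 members, and in 52.0% of all genes. Its median was -0.14 over the members, a ratio of 0.91, against -0.02 over all genes and 0.04 over known genes tested. The range over members was narrow, from -0.32 in Ndufa8 to 0.54 in Ndufs1, and 34 of the 35 lay within 0.5 of 0. The standard error of a member's log2 fold change had a median of 0.10, against 0.23 over all genes. In bulk RNA, fewer cells of a type and less RNA per cell cannot be told apart.

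**Figure D1:**
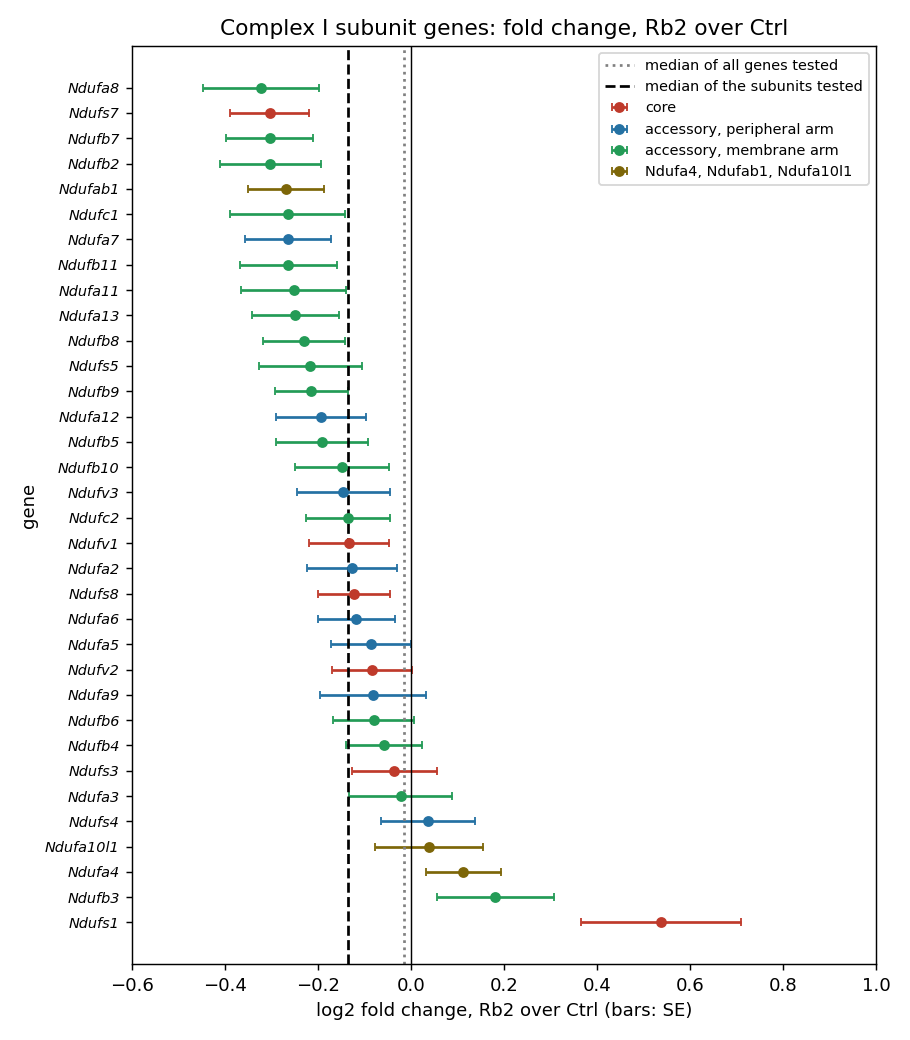
Log2 fold change of Rb2 over Ctrl for 34 of the 35 complex I subunit genes tested, 1 point per gene with its standard error, coloured by the part of the complex. Most points lie left of 0, Ndufs1 lies apart at 0.54, and dashed and dotted lines mark the medians of the members (-0.14) and of all genes tested (-0.02).

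The small shift was not the same in the 3 Ctrl samples. Relative to each gene's Ctrl mean, the members' median log2 ratio was -0.09, -0.16 and -0.15 in Rb2 replicates 1 to 3 and 0.10, 0.02 and -0.12 in Ctrl replicates 1 to 3. Ctrl replicate 3 therefore lay among the Rb2 samples. Summed over all members tested, the level was 13604, 13005 and 12821 CPM in Rb2 and 15667, 14612 and 13429 CPM in Ctrl, so the groups overlapped between Rb2 replicate 1 and Ctrl replicate 3. Ctrl replicate 1, the deepest library, held the highest value of 21 of 35 members. The coefficient of variation between samples had a median over members of 4.01% in Rb2 and 9.82% in Ctrl, and it was larger in Ctrl for 33 of 35. Neither count was taken over all genes, so neither can be read as particular to the members. Ctrl replicate 1 also stood apart on the first principal component of all genes tested. As a share of all counts, the members took 1.36% ± 0.02 in Rb2 and 1.39% ± 0.07 in Ctrl (SD, n = 3 each). That difference of -0.0324 percentage points turned to 0.0066 without Ctrl replicate 1, and to 0.0143 with counts taken per kilobase.

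**Figure D2:**
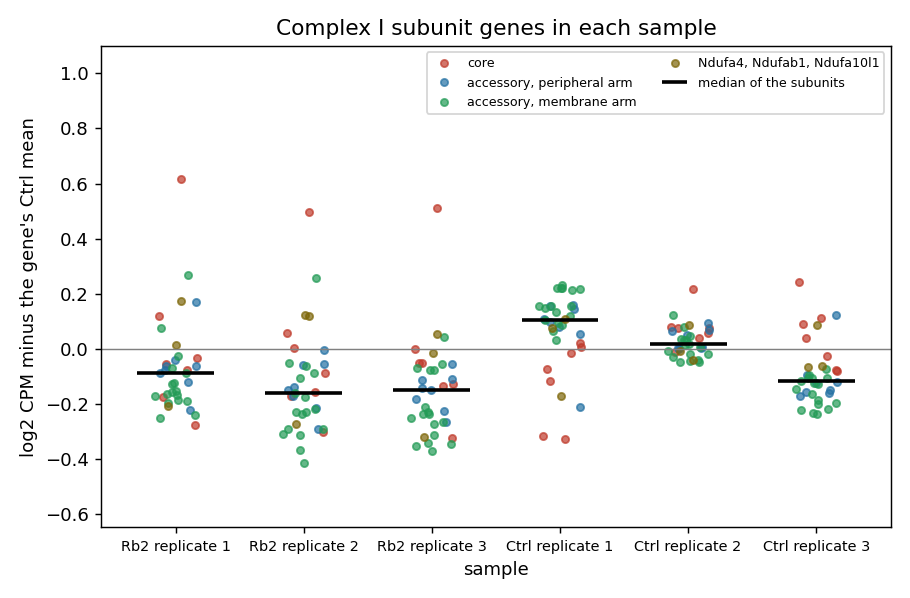
Log2 CPM of each complex I subunit gene minus that gene's Ctrl mean, 1 point per gene in each of the 6 samples, with the median of the 35 genes as a bar. The medians run from -0.16 to -0.09 in Rb2, against 0.10, 0.02 and -0.12 in Ctrl replicates 1 to 3.

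Groups did not overlap in 10 members that were lower in Rb2 (28.6%, where 12.2% of all genes were) and in 1 that was higher (2.86%, where 15.0% of all genes were). The 10 were the core subunits Ndufs7 and Ndufs8, the carrier protein Ndufab1, the accessory subunit Ndufa7 of the peripheral arm, and the membrane-arm subunits Ndufa13, Ndufb2, Ndufb5, Ndufb7, Ndufb8 and Ndufb9. The 1 that was higher was Ndufs1.

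The 7 core subunits encoded in the nucleus bind the flavin and the iron-sulphur clusters or shape the ubiquinone site, and they differed among themselves. Their median log2 fold change was -0.08, with 5 below 0. Ndufs7, which carries the last iron-sulphur cluster before ubiquinone, was at 196, 192 and 189 CPM in Rb2 and 240, 247 and 225 CPM in Ctrl (CPM scaled by TMM here and below). All Rb2 values were below all Ctrl values, with means of 192 ± 3.15 and 237 ± 11.4 CPM (SD, n = 3 each; Rb2 over Ctrl on the log2 scale -0.30, SE 0.08). Its edgeR adjusted p of 0.0856 was the smallest of any member.

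Ndufs1, the largest subunit, carries several of the iron-sulphur clusters of the NADH-oxidising part. It was at 31.1, 28.6 and 28.9 CPM in Rb2 and 16.0, 23.5 and 21.8 CPM in Ctrl. The groups did not overlap, and the means were 29.5 ± 1.40 and 20.5 ± 3.93 CPM (SD, n = 3 each; Rb2 over Ctrl on the log2 scale 0.54, SE 0.17, edgeR adjusted p = 0.122). Over all alternatives its log2 fold change ran from 0.28 to 0.66 and its adjusted p from 0.0673 to 0.333. At 2722 bases it was also the longest but 1 of the member genes, a point taken up with gene length.

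Ndufs8, another carrier of iron-sulphur clusters, was at 415, 392 and 398 CPM in Rb2 and 433, 450 and 430 CPM in Ctrl. These groups were apart too, but by little (log2 fold change -0.12, SE 0.08, edgeR adjusted p = 0.412). Ndufv1, which binds NADH and the flavin, was at 299, 299 and 325 CPM in Rb2 and 320, 334 and 359 CPM in Ctrl, with overlap (log2 fold change -0.13, SE 0.09). Its partner Ndufv2 was at 240, 231 and 224 CPM in Rb2 and 246, 258 and 232 CPM in Ctrl, also with overlap (log2 fold change -0.08, SE 0.09).

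Ndufs3 lies between the clusters and the membrane. Ndufs3 was at 170, 177 and 170 CPM in Rb2 and 163, 186 and 182 CPM in Ctrl, with Ctrl values on both sides of all Rb2 values (log2 fold change -0.04, SE 0.09).

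The accessory subunits of the peripheral arm, which stabilise it or help to complete it, had 7 of 8 tested members below 0 and a median log2 fold change of -0.12. The member with the smallest p was Ndufa7, at 511, 486 and 495 CPM in Rb2 and 659, 598 and 536 CPM in Ctrl. Ctrl replicate 1 was highest, and the groups did not overlap (log2 fold change -0.27, SE 0.09, edgeR adjusted p = 0.146). Ndufs4, whose loss causes a severe mitochondrial disease in humans and mice, was at 191, 169 and 163 CPM in Rb2 and 176, 178 and 156 CPM in Ctrl, and its groups overlapped (log2 fold change 0.04, SE 0.10). Ndufv3, Ndufa2, Ndufa5, Ndufa6, Ndufa9 and Ndufa12 had log2 fold changes between -0.19 and -0.08. A second row named Ndufv3, with 327 bases, had a count of 0 in all 6 samples. Such a count of 0 allows up to 0.578 CPM in the shallowest library, counting error only.

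The accessory subunits of the membrane arm were lowest as a group, with 16 of 17 tested members below 0 and a median log2 fold change of -0.22. Ndufb7, on the side of the arm that faces the intermembrane space, was at 291, 284 and 272 CPM in Rb2 and 385, 340 and 320 CPM in Ctrl. The groups did not overlap, and Ctrl replicate 1 was again highest (log2 fold change -0.30, SE 0.09, edgeR adjusted p = 0.112). Ndufb2 was at 457, 441 and 424 CPM in Rb2 and 627, 533 and 471 CPM in Ctrl (log2 fold change -0.30, SE 0.11). Ndufb3 was the exception in this arm, at 146, 145 and 125 CPM in Rb2 and 140, 122 and 104 CPM in Ctrl, with groups that overlapped (log2 fold change 0.18, SE 0.13, edgeR adjusted p = 0.46). The remaining members of this arm ran from -0.32 in Ndufa8 to -0.02 in Ndufa3. No difference between the arms was tested.

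The remaining members stand outside these groups. Ndufab1, the mitochondrial acyl carrier protein that sits in both arms and also serves fatty acid synthesis, was at 397, 379 and 367 CPM in Rb2 and 484, 456 and 438 CPM in Ctrl. Its groups were well apart, with means of 381 ± 15.3 and 459 ± 23.0 CPM (SD, n = 3 each; Rb2 over Ctrl on the log2 scale -0.27, SE 0.08, edgeR adjusted p = 0.109). Ndufa4, once assigned to complex I and now counted with complex IV, was at 1325, 1276 and 1219 CPM in Rb2 and 1266, 1142 and 1125 CPM in Ctrl, with overlap (log2 fold change 0.11, SE 0.08). Ndufa10l1, a copy related to Ndufa10, was at 71.2, 76.8 and 69.7 CPM in Rb2 and 62.6, 74.8 and 75.0 CPM in Ctrl, with groups that overlapped and Ctrl replicate 1 lowest (log2 fold change 0.04, SE 0.12). Ndufa4l2, a paralog of Ndufa4 known to be induced by low oxygen in other cells, had 2, 1 and 3 counts in Rb2 and 2, 2 and 1 counts in Ctrl. It was near the limit of detection in every sample and was not tested. RefSeq lists at least 1 pseudogene for 15 of the 36 member symbols, and the authors' counting could have divided reads of those genes with such copies.

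Levels were compared between genes as CPM per kilobase of the deposited gene length. The labels describe a short-read library kit, while the new transcript models carry the prefix ONT; if the reads were long, a count would already stand for a molecule and division by length would distort these levels. Among the 35 members tested the highest was 241 times the lowest per kilobase, and 49.0 times as plain CPM, where Ndufa4 was highest and Ndufs1 lowest. Ndufb4, a membrane-arm subunit, was highest at 2168 ± 37.7 CPM per kilobase in Rb2 and 2258 ± 176 in Ctrl (SD, n = 3 each). Its CPM values were 1048, 1023 and 1013 in Rb2 and 1132, 1103 and 976 in Ctrl, and they overlapped (log2 fold change -0.06, SE 0.08). Ndufa4 was second, at 1622 ± 67.5 CPM per kilobase in Rb2 and 1500 ± 97.8 in Ctrl, a gap from Ndufb4 larger than the spread of either. At the low end were Ndufa10l1, at 36.6 ± 1.88 CPM per kilobase in Rb2 and 35.7 ± 3.57 in Ctrl, and Ndufs1, at 10.9 ± 0.51 in Rb2 and 7.51 ± 1.44 in Ctrl. The median level was 184 CPM per kilobase over the core subunits, 573 over the accessory subunits of the peripheral arm and 436 over those of the membrane arm. The next in order, Ndufa13 and Ndufb8, averaged 1434 and 1419 CPM per kilobase over both groups and did not differ beyond their spread. This order depended on the length used. With each transcript's counts divided by its own length, Ndufb4 stayed highest at 2321, followed by Ndufa13 at 1806, Ndufa4 at 1561 and Ndufb8 at 1419. The medians by part of the complex were taken on the deposited gene length only.

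**Figure D3:**
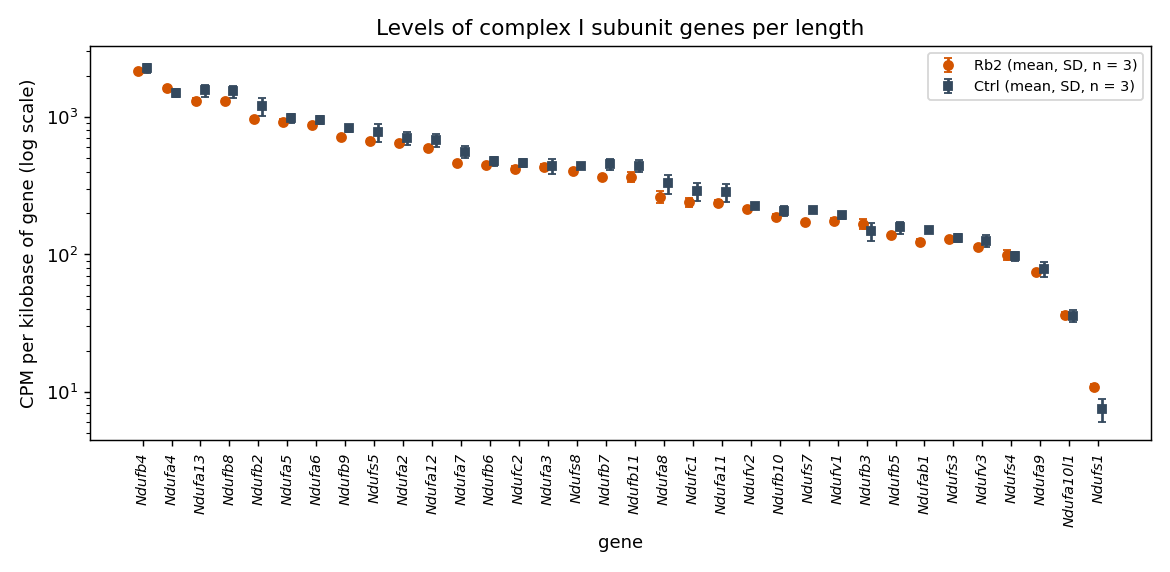
Mean level of 34 of the 35 complex I subunit genes tested in Rb2 and in Ctrl, in CPM per kilobase of deposited gene length on a log scale, with the SD of 3 samples. Levels run from 2168 in Rb2 and 2258 in Ctrl for Ndufb4 to 10.9 in Rb2 and 7.51 in Ctrl for Ndufs1. The marks of the 2 groups lie close together for most genes and farthest apart for Ndufs1.

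Gene length moved with the fold changes. The deposited length had a median of 929 bases over the members tested and 2594.5 bases over known genes tested, and 33 of 35 members were below the second value. With the other known genes split by length into 10 groups of near equal size, the group of shortest genes had a median log2 fold change of -0.09 and that of the longest 0.10. Across the 35 members Pearson's r between log2 length and log2 fold change was 0.29 with the deposited gene length and 0.56 with the transcript length weighted by counts; these genes share the same 6 libraries, and the values are descriptions. The mean deposited gene length behind a count was 1763 ± 2.89 bases in Rb2 and 1712 ± 30.6 bases in Ctrl (SD, n = 3 each).

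With an offset for the deposited gene length in each library, the members' median log2 fold change was -0.07, against -0.04 over all genes. Members below 0 then numbered 12 of 17 in the membrane arm and 5 of 8 among the peripheral accessory subunits. With transcript length in its place, an offset chosen after the data were seen, the medians were -0.04 over the members, with 26 of 35 below 0, and -0.03 over all genes. Under the transcript-length offset the membrane-arm subunits had a median of -0.08, the core subunits -0.03 and the accessory subunits of the peripheral arm -0.04, and 0 members were called. Ndufs7 and Ndufab1 were then at -0.27 (adjusted p = 0.0856) and -0.23 (adjusted p = 0.0944). Ndufb7 and Ndufa7 were at -0.12 and -0.08, and Ndufs1 was at 0.38 (adjusted p = 0.23). Ndufb3 was at 0.31 (adjusted p = 0.112) and Ndufa4 at 0.20, both farther above 0 than without the offset (all by edgeR). The deposited length of Ndufab1 is 3072 bases, while its leading transcript has 926. With the offset on the deposited length this gene passed the threshold (log2 fold change -0.40, edgeR adjusted p = 0.0493; 0.987% of all genes were called lower), the 1 member to do so.

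**Figure D4:**
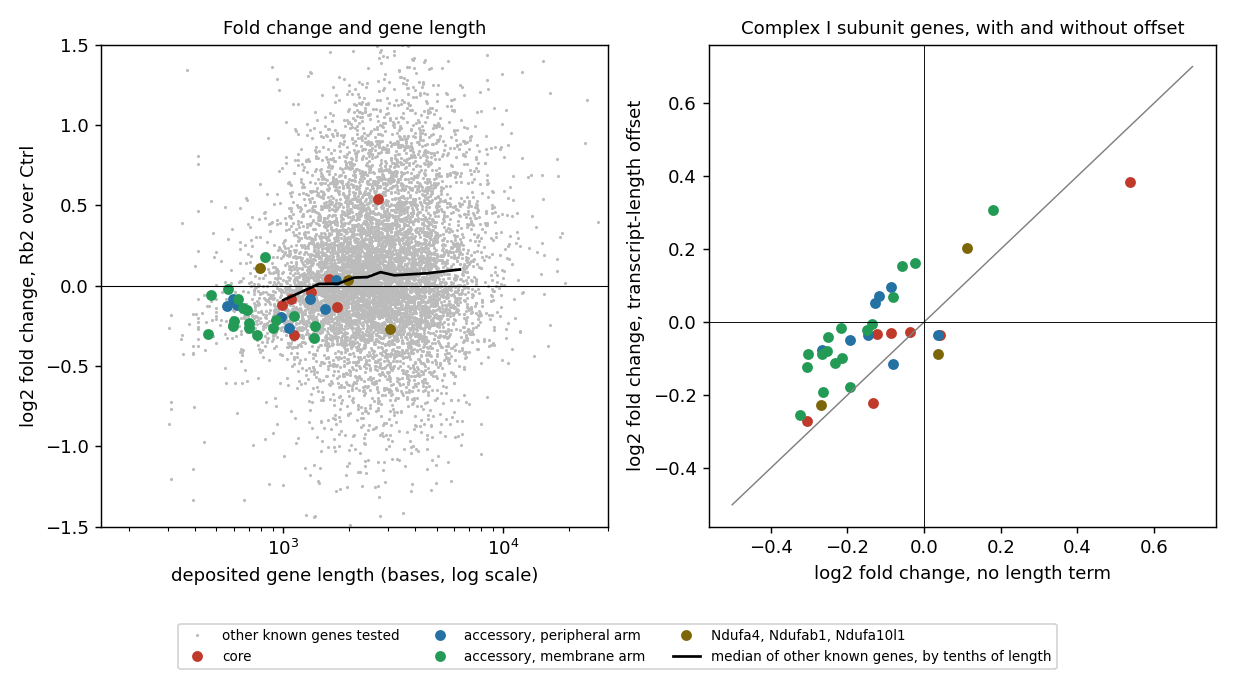
Left, log2 fold change of Rb2 over Ctrl against deposited gene length (log scale) for known genes tested, with the 35 complex I subunit genes coloured by their place in the complex; 69 of 8391 other genes lie outside the vertical range. Right, the subunits' log2 fold change without and with an offset for transcript length, beside the line of equality: most subunits lie above the line, and their median goes to -0.04.

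The scaling set the sign of the smallest differences. With library size in place of TMM, all genes had a median of 0.10 and the members -0.02, with 22 of 35 below 0. The members' median less that of all genes was -0.12 with TMM, RLE or upper-quartile factors and with library size only. Leaving out 1 library decided calls: without Ctrl replicate 1, Ndufs7 (edgeR adjusted p = 0.0236) and Ndufab1 (adjusted p = 0.0454) passed, when 2.45% of all genes were called lower and 5.08% higher. Without Ctrl replicate 3, Ndufb2 passed (adjusted p = 0.0494), when 1.76% were called lower and 3.60% higher. With the length offset and without Ctrl replicate 1, Ndufs7 (adjusted p = 0.0176) and Ndufab1 (adjusted p = 0.00806) passed as lower and Ndufb3 (adjusted p = 0.0428) as higher, when 4.82% of all genes were called lower and 3.79% higher.

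The deposited transcript table held 100 transcripts of these genes, 40 of them annotated and 60 new models, and 66 were tested. In edgeR's test 0 were called, as among all 16679 transcripts tested (0.00%), of which 2304 had an unadjusted p under 0.05. At that unadjusted threshold 15 of the 66 were lower and 1 higher, while the 2304 of all transcripts take both directions together. DESeq2 called 311 transcripts in all and 0 of these. Their median log2 fold change was -0.15, against -0.03 over all transcripts tested. One transcript supplied over 90% of the counts in 30 of the 36 members with counts. In 6 members (Ndufs1, Ndufc2, Ndufab1, Ndufa3, Ndufc1 and Ndufs5) the leading transcript was a new model. New models held 14.4% ± 0.21 of the members' counts in Rb2 and 14.6% ± 0.18 in Ctrl (SD, n = 3 each).

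The 3 member transcripts with the smallest p were all lower in Rb2. An annotated transcript of Ndufc2, a membrane-arm subunit, had 4, 7 and 7 counts in Rb2 and 30, 18 and 22 counts in Ctrl, and the groups did not overlap (log2 fold change -1.73, SE 0.32, edgeR adjusted p = 0.147). It made up 0.39% ± 0.13 of its gene's counts in Rb2 and 1.18% ± 0.18 in Ctrl, so the gene's level rests on a new model of 662 bases. The leading annotated transcript of Ndufs7 (log2 fold change -0.30, edgeR adjusted p = 0.207) and the leading new model of Ndufab1 (-0.28, adjusted p = 0.219) followed their genes. Transcript usage, meaning how a gene's counts divide among its transcripts, was called in 0 of the 22 members tested with diffSpliceDGE, where 0.417% of 3361 genes were called, and 1 member had an unadjusted p under 0.05. The smallest Simes p-values were those of Ndufc2 (adjusted p = 0.958), Ndufb9 and Ndufa12 (adjusted p = 1.00 each, by edgeR). The leading transcript of Ndufb9 took 98.6% ± 0.62 of counts in Rb2 and 97.9% ± 0.38 in Ctrl, and that of Ndufa12 took 89.6% ± 1.95 in Rb2 and 92.2% ± 1.12 in Ctrl (SD, n = 3 each).

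Other genes tied to complex I gave the following values. Of 7 subunits encoded in mitochondrial DNA 5 were tested, none was called, and all 5 had a log2 fold change above 0, with a median of 0.29. Mt-nd1, the most abundant of them, which encodes the subunit next to the ubiquinone site, was at 955, 836 and 914 CPM in Rb2 and 650.1, 844 and 823 CPM in Ctrl. Ctrl replicate 1 was lowest, while Ctrl replicate 2 lay inside the Rb2 range (log2 fold change 0.22, SE 0.11, edgeR adjusted p = 0.293). Mt-nd2, Mt-nd3, Mt-nd4 and Mt-nd5 were far less abundant, between 4.02 and 21.1 CPM in any sample. The median of 0.29 is the value of Mt-nd4, which had 23 to 43 counts, an SE of 0.25 and groups that overlapped. With the length offset Mt-nd5 was at -0.03. Of 20 assembly factors listed 18 were tested and none was called, with 11 above 0, 7 below 0 and a median of 0.10. The most abundant, Ndufaf8, was at 102, 110 and 109 CPM in Rb2 and 119, 125 and 109 CPM in Ctrl (log2 fold change -0.14, SE 0.10). The assembly factors had a median length of 1844.5 bases and the mitochondrial genes 1039 bases, and with the length offset their medians were 0.03 and 0.27. Without Ctrl replicate 1 the assembly factors' median was 0.0345, and with the length offset as well it was -0.0433, when 1 assembly factor and 1 mitochondrial gene were called. In that last fit 4.82% of all genes were called lower and 3.79% higher. Whether these lists differ from the nuclear subunits was not tested.

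Of 46 nuclear genes of complexes II to V tested, 33 were below 0 and the median log2 fold change was -0.08. Scaling by library size alone put it at 0.0336; it was 0.0401 and 0.0402 on the deposited CPM with pseudocounts of 1 and 0.1, and 0.0124 with the transcript-length offset. It was -0.0428 without Rb2 replicate 2, -0.0462 without Rb2 replicate 3 and -0.0276 without Ctrl replicate 2. The 1 call among these 46, where 2.70% of all genes were called, was Sdhaf3, an assembly factor of complex II that the symbol pattern also takes in. It rose to 14.6, 12.3 and 14.2 CPM in Rb2, against 6.31, 7.77 and 7.69 CPM in Ctrl (log2 fold change 0.92, SE 0.19, edgeR adjusted p = 0.0429), and it lost its call when any Rb2 sample or Ctrl replicate 2 was left out (adjusted p = 0.143 to 0.188). The call was also lost with upper-quartile factors (0.0501), known genes only (0.0558), the replicate number as a block (0.0909), and the length offset with that block (0.107). Its adjusted p ran from 0.0135 to 0.188 over all alternatives, which called between 0 and 7 genes of this list. Those alternatives called from 0 to 605 of all genes higher and from 3 to 574 lower. Of 9 regulators of mitochondrial genes listed 6 were tested and none was called. The log2 fold change was above 0 in 4 and below 0 in 2, with a median of 0.22. Gabpa (5 to 20 counts) was at 1.00 and Yy1 (10 to 23 counts) at 0.80, with groups apart (edgeR adjusted p = 0.130 and 0.239). Nrf1 (37 to 68 counts) was at -0.12 with overlap (edgeR adjusted p = 0.822). Tfam, which packages and transcribes mitochondrial DNA, was the most abundant, at 46.3, 45.4 and 48.2 CPM in Rb2 and 35.9, 37.1 and 44.4 CPM in Ctrl, with groups apart (log2 fold change 0.25, SE 0.13, edgeR adjusted p = 0.306).

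**Figure D5:**
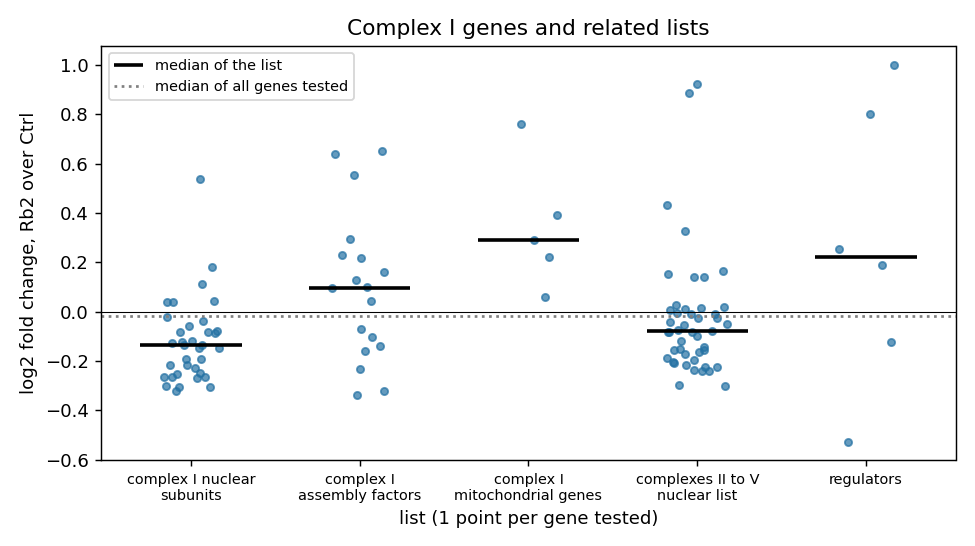
Log2 fold change of Rb2 over Ctrl in the complex I subunits and in 4 related lists, 1 point per gene tested and a bar at each list's median. The bar lies at -0.14 for the nuclear subunits of complex I, 0.10 for the assembly factors and 0.29 for the mitochondrially encoded subunits. It lies at -0.08 for complexes II to V and 0.22 for the regulators.

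The known genes whose log2 CPM over the 6 samples was most like the members' mean profile were Suclg1, a subunit of succinyl-CoA ligase in the citric acid cycle (Pearson's r = 0.998), Gart, an enzyme of purine synthesis (0.993), Rps15al4 (0.993), Rpl22, a ribosomal protein (0.992), and Cox7a2, a subunit of complex IV (0.991). These values describe 6 points that share libraries. Suclg1 was at 329, 310 and 303 CPM in Rb2 and 376, 360 and 325 CPM in Ctrl, with Ctrl replicate 3 nearest to the Rb2 samples as it was for the members. Gene lengths differed among these genes, with 2707 bases in Suclg1 and 496 in Cox7a2.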

How the data were processed

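RNA of 6 H9c2 samples (3 Rb2, 3 Ctrl) was analysed from the authors' deposited whole-number counts per gene and per transcript. The deposited CPM values divide each count by its column's sum, without regard to length (largest difference 4.9e-11; 100% of values came back as whole reads within 1e-04). Per the submitters' processing notes, HISAT2, DESeq2 and mm10 were used in no stated role, although the members carry rat identifiers. For the counter and annotation nothing is given in the sources used here. Each table's 18 further per-sample columns match no sample here and were not used.

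The main test was edgeR 4.0.16 under R 4.3.3 (TMM, filterByExpr, robust quasi-likelihood fit, group as the only term), with Benjamini-Hochberg over all features and calls at an adjusted p under 0.05. Each standard error is the absolute log2 fold change over the root of F. Transcript usage was tested with diffSpliceDGE. Alternatives used limma 3.58.1 and DESeq2 1.42.0, other scalings and filters, length offsets (loess span 0.5), the replicate number as a block, and samples left out. A count of 3 is the limit that a count of 0 allows. The members, lists and the rule for named genes were chosen with earlier results of these data known. That rule takes called members, the 4 with the smallest p each way, the core subunits, both ends of the level order, Ndufa4, Ndufa4l2 and Ndufab1. In each related list it takes the called members or the most abundant. Ndufb2, Ndufb5, Ndufs8 and others are named for counts. Gabpa, Yy1 and Nrf1 are named outside the rule, beside the motifs. Of the members tested, 1 is counted but not reported by name here.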

Additional observations from a re-analysis of the deposited data

How the results depend on the processing

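No complex I member was called under any other scaling, low-count filter, threshold or tool tried. Counts of called genes were unstable, against 219 higher and 93 lower in the main test. There were 135 higher with upper-quartile factors, 463 higher with library size only, and 386 higher and 150 lower with no filter. Known genes only gave 83 higher and 30 lower, DESeq2 330 higher, and limma-voom 122 higher and 55 lower. With limma on deposited CPM (log2), 469 were higher with a pseudocount of 1 and 385 higher with 0.1. A threshold of 0.01 gave 4 higher and 13 lower, and the length offset 135 higher. Without 1 sample the counts ran from 0 to 605 higher and from 3 to 291 lower, and the called members from 0 to 2 lower. The length offset called 1 member lower. Together with Ctrl replicate 1 left out it gave 451 higher and 574 lower genes, among them 1 member higher (Ndufb3, edgeR adjusted p = 0.0428) and 2 lower. The members' median log2 fold change was -0.0222 with library size only and on the deposited CPM plus 1, -0.0223 on the CPM plus 0.1, and -0.0363 with the transcript-length offset, which called 149 genes higher and 123 lower.

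Same-numbered samples did not deviate together (correlations of -0.07, -0.06 and -0.01). The largest correlation, 0.16, was between Rb2 replicate 1 and Ctrl replicate 2. With 3 samples per group these values cannot decide whether samples were paired in the design. With the replicate block 12 genes were higher and 21 lower, and with the length offset and the replicate block 2 and 14; 0 members were called and their medians were -0.14 and -0.07.

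Members near 0 changed sign. With upper-quartile factors, known genes only, the length offset, that offset with the block, and the transcript-length offset, Ndufs4 was at -0.0118, -0.0099, -0.0347, -0.0332 and -0.0353, and Ndufa10l1 at -0.0099, -0.0059, -0.0496, -0.0496 and -0.0877 (-0.10 with the length offset and without Ctrl replicate 1). With library size only, CPM plus 1 and CPM plus 0.1, Ndufv2 was at 0.0291, 0.0293 and 0.0294, Ndufs3 at 0.0754, 0.0774 and 0.0779, and Ndufb4 at 0.0563, 0.0577 and 0.0577. Ndufb4 was at 0.15 with each offset, with or without the block, and at 0.12 with the length offset and without Ctrl replicate 1. With the length offset 7 members below 0 turned above 0, Ndufb4 among them; the others were Ndufa2, Ndufa3, Ndufa5, Ndufa6, Ndufb6 and Ndufc2, and all but Ndufc2 were above 0 with the transcript-length offset too. Ndufaf8 was at 0.0567 with the length offset, 0.0566 with that offset and the block, and 0.0728 with the transcript-length offset. Without 1 sample Ndufs4 ran from -0.0326 to 0.084, Ndufs3 from -0.0761 to 0.0082, Ndufb4 from -0.11 to 0.0016 and Ndufa10l1 from -0.0281 to 0.10. The cause was not tested. Depth limits Ndufa4l2 and the transcripts with few counts.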
